A study of Mus musculus with 18 samples.

Results

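The genes described here encode the proteins of the mitochondrial ribosome. They were chosen by name, as every gene whose symbol is Mrpl or Mrps followed by a number and that is not marked as a pseudogene. Of the 49315 genes in the deposited tables, 78 met this rule, 49 named for the large subunit (Mrpl) and 29 named for the small subunit (Mrps). RNA was sequenced from whole hearts of wild-type C57BL/6 mouse embryos, male and female pooled, at embryonic day 9.5 (E9.5, 3 libraries) and at 4 later stages, E10.5 (4 libraries), E12.5 (4), E14.5 (3) and E16.5 (4). No group carried a treatment or an engineered allele, and age was the only difference that the labels give. Whether replicates come from separate litters or separate pools is not given in the labels, and p-values therefore reflect only a spread among libraries that may be technical.

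The mitochondrial ribosome translates the 13 mRNAs of the mitochondrial genome, which encode core subunits of the respiratory chain and of ATP synthase. Its rRNAs are transcribed inside the organelle, while its proteins are encoded in the nucleus, made in the cytosol and imported. Many of the proteins descend from the bacterial ribosome, and others, such as Mrpl42 and Mrps34, have no bacterial counterpart. The heart depends on oxidative phosphorylation, and inherited defects of MRPL3, MRPL44, MRPS14 and MRPS22 in people include cardiomyopathy. Cardiac transcripts were abundant at every stage: summed over 13 cardiomyocyte genes, the level was 34770 ± 1835 CPM (a gene's count scaled to the library's size, ± SD, n = 3) at E9.5 and 47040 ± 2322 CPM (SD, n = 4) at E16.5. Library totals ran from 30744015 to 45646538 counts. In 5 libraries (E9.5 replicates 2 and 3, E10.5 replicates 1 and 2 and E12.5 replicate 4), 8 transcripts typical of macrophages summed to between 0.582 and 2.75 CPM, against 341 to 689 CPM in the other 13, and several of the results that use these 5 libraries are also given without them.

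The 78 genes lie on 17 chromosomes. In 33 of them (42.3%) the start lies within 1000 bases of the start of a protein-coding gene that is read in the opposite direction, against 14.4% of the 15396 protein-coding genes tested. RefSeq promoter sequences (GRCm38.p6, from 250 bases before to 50 after the start) were matched to 69 of the 78. Short motifs named for factors linked to nuclear genes of mitochondria were searched on both strands. Shares are of genes, and a gene with more than 1 promoter was counted if any of them held the motif. CCGGAAGT, a motif of ETS factors such as GABP, was in 17.4% of the matched members, against 4.31% of all 27025 genes with a promoter and 7.70% of the 12868 tested genes among them. The shorter form CGGAAG, which lies within it, was in 56.5%, against 18.8% and 30.6%. AAGATGGC, a motif of YY1, was in 17.4%, against 3.19% and 4.55%. The full palindrome of NRF1 was in 4.35%, against 1.07% and 1.98%, and TGCGCA, which overlaps it, was in 30.4%, against 8.79% and 14.1%. GGGCGG, the SP1 box, was in 49.3%, against 38.2% of all genes with a promoter and 64.2% of tested genes, and TATAAA was in 7.25%, against 15.7% and 9.47%. A match describes the letters and shows no binding.

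Stretches from 150 bases before to 30 after the start are printed for 5 members, with the longer motifs in capitals. Mrpl33 (chr5:31613801-31613980, plus strand) and Mrps27 (chr13:99344636-99344815, plus strand) are shown as genes that were higher at E16.5 than at E9.5, and Mrpl36 (chr13:73330859-73331038, plus strand) and Mrps22 (chr9:98601650-98601829, minus strand) as genes that were lower. Mrpl32 (chr13:14613008-14613187, minus strand) is shown because it holds the full NRF1 palindrome and correlated least with the median profile of the members over the stages. It was nearly flat, with a highest stage mean 1.04 times its lowest. Mrpl39 and Mrpl9, which also hold the palindrome, had correlations of 0.98 and 0.85 with that profile. The capitals mark CCGGAAGT or its reverse complement in Mrpl33, Mrps27 and Mrps22, AAGATGGC or its reverse complement in Mrps27 and Mrpl36, and the NRF1 palindrome in Mrpl32.
Mrpl33: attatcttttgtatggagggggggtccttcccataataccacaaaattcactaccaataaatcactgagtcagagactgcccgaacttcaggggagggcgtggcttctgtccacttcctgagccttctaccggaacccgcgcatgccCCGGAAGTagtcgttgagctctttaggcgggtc
Mrps27: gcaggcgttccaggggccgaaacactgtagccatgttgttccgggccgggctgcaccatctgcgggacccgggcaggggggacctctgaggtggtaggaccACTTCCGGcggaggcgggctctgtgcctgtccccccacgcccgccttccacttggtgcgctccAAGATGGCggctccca
Mrpl36: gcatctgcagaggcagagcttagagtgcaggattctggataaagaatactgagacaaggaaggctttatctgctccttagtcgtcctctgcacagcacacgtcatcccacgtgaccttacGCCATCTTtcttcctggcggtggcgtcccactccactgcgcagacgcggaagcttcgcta
Mrps22: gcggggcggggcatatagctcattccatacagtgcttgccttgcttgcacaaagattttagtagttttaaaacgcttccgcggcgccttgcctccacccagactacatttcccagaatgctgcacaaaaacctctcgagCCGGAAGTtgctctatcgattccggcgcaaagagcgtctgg
Mrpl32: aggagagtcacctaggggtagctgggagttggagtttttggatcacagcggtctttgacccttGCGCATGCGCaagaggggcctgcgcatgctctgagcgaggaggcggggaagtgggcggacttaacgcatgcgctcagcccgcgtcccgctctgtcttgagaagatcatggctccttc
The promoters with and without CCGGAAGT are described beside the last comparison.

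Summed over the 78 genes, mitoribosomal transcripts were highest at E16.5, with smaller differences between the means of the stages from E9.5 to E14.5. The sum was 4343, 3822 and 3757 CPM in the E9.5 libraries. It was 3572, 3360, 3835 and 3857 CPM at E10.5 and 3591, 3623, 4091 and 3612 CPM at E12.5. At E14.5 it was 3476, 3753 and 4114 CPM, and at E16.5 it was 4770, 4393, 4236 and 5124 CPM. The 4 libraries of E16.5 lay above all libraries of E10.5, E12.5 and E14.5, and E9.5 replicate 1 lay within their range. The stage means were 3974 ± 321 (SD, n = 3), 3656 ± 236 (n = 4), 3729 ± 242 (n = 4), 3781 ± 320 (n = 3) and 4631 ± 398 CPM (n = 4). The means of E9.5, E10.5, E12.5 and E14.5 differ from each other by less than the SD at E9.5, the largest SD of these stages. Those of E9.5 and E10.5 differ by more than the SD at E10.5 or at E12.5. Within the libraries low in macrophage transcripts, each E9.5 sum lay above each E10.5 sum, and this also held within the other libraries.

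Per kilobase of exon, the mean large-subunit gene was at 26.5 ± 1.94 CPM at E9.5 and 31.5 ± 3.13 CPM at E16.5, and the mean small-subunit gene at 20.5 ± 1.40 and 24.9 ± 2.32 CPM (SD). The ratio of these means lay between 1.23 and 1.30 in every one of the 18 libraries. Its mean was 1.29 ± 0.00666 at E9.5 and 1.27 ± 0.00970 at E16.5 (SD).

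**Figure D1:**
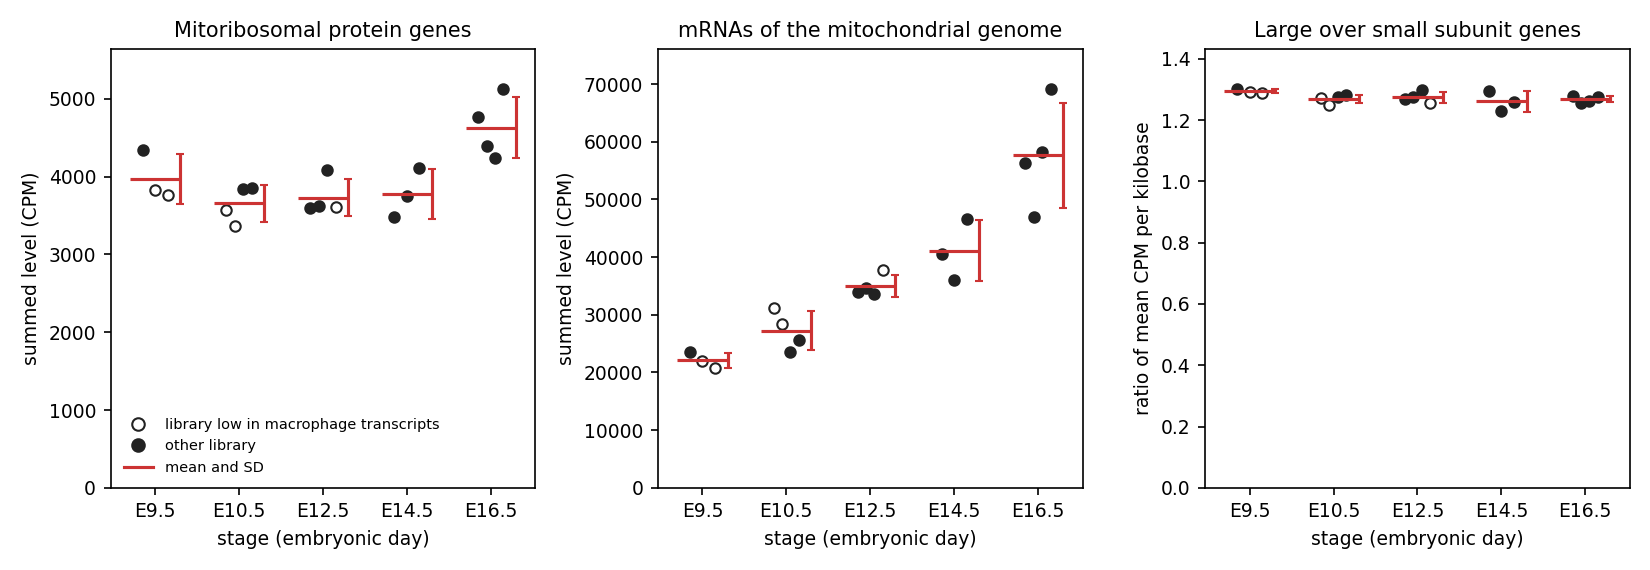
Summed level of the 78 mitoribosomal protein genes, summed level of the 13 mitochondrially encoded mRNAs, and ratio of the mean large-subunit to the mean small-subunit level per kilobase of exon, by library and stage. Each point is a library, open points are the 5 libraries low in macrophage transcripts, and red lines are stage means with SD. The mitoribosomal sum is highest at E16.5 (4631 CPM), the mitochondrial mRNAs climb at each stage, and the ratio lies between 1.23 and 1.30.

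Members differed far more between genes than between stages. Averaged over the 18 libraries and per kilobase of exon, Mrpl12, the stalk protein that also binds the mitochondrial RNA polymerase, stood highest at 95.4 CPM. Mrpl34 (77.8 CPM), Mrps21 (73.2 CPM) and Mrpl18 (60.7 CPM) followed. The lowest were Mrps35 (5.01 CPM), Mrps10 (4.22 CPM), Mrps30 (3.66 CPM) and Mrpl53 (2.12 CPM). The length used is that of all annotated exons of a gene merged, so this order depends on the annotation too. It was 607 bases for Mrpl34 and 739 for Mrps21, but 8631 for Mrps35 and 8079 for Mrps10. Before division by length, the E9.5 libraries had 42.34, 37.86 and 41.79 CPM of Mrpl34 and 44.25, 41.0 and 36.84 CPM of Mrps35. Mrps30 carries a small-subunit name although structures place it in the large subunit. The reading for Mrpl53 is uncertain, since 88.0% of its exon length is shared with another annotated gene, Gm42688, on the same strand. The median member was at 20.9 CPM per kilobase at E9.5 and 21.8 CPM per kilobase at E16.5. By contrast, the highest stage mean of a gene was 2.13 times its lowest for Mrpl42 and 1.04 times for Mrpl32.

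The stage of highest level was E16.5 for 53 members, E9.5 for 22, E10.5 for 2 and E14.5 for 1. The stage of lowest level was E10.5 for 33 members, E14.5 for 29, E12.5 for 11 and E9.5 for 5. Mrpl4, Mrpl12 and Mrpl37 followed the median profile of all members most closely, with Pearson correlations of 0.996, 0.992 and 0.987 over the 5 stage means. Mrpl32 (-0.25), Mrpl19 (-0.24), Mrps22 (-0.11) and Mrpl17 (-0.06) followed it least. These correlations are descriptions over 5 points that share their libraries.

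**Figure D2:**
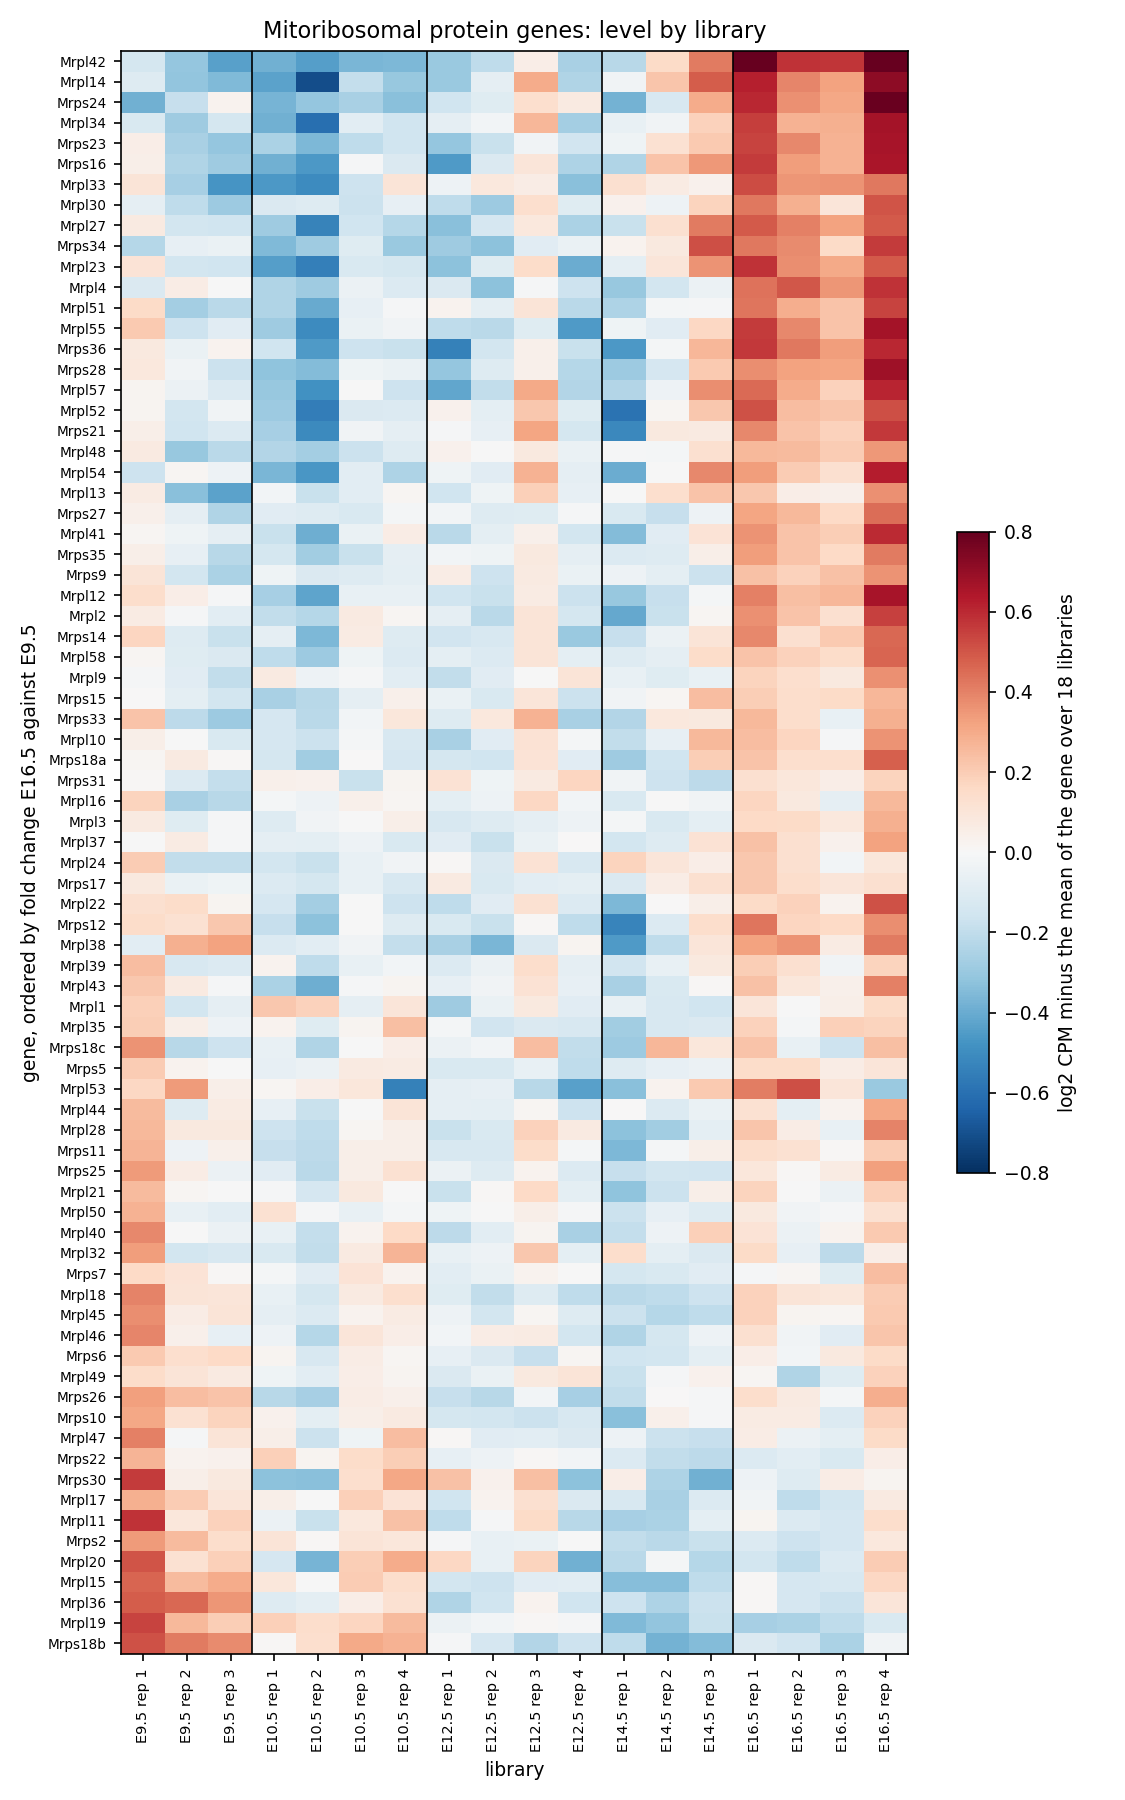
Level of each mitoribosomal protein gene (rows, ordered by the fold change of E16.5 against E9.5) in each library (columns, grouped by stage), as log2 CPM minus the gene's mean over the 18 libraries, with colours capped at the ends of the scale. Red blocks fill the 4 E16.5 columns in the upper rows, and the lowest rows, with Mrps18b and Mrpl19, are red at E9.5 and blue at E14.5.

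The comparison of E16.5 with E14.5 asks what changed over the last 2 days sampled, and among the comparisons of neighbouring stages it had the most members called. Of the 78 members, 35 rose (edgeR's quasi-likelihood test, adjusted p under 0.05 over all 18885 genes tested), while 10.1% of all genes tested rose. They comprised 21 of 49 large-subunit and 14 of 29 small-subunit genes. None fell, by edgeR, DESeq2 or limma-voom, and 0 were lower at an unadjusted p under 0.05, while 8.74% of all genes fell. The fold change was positive in 77 of 78 members, with a median of 0.26 (log2) against -0.02 for all genes tested. In 37 members every E16.5 library was above every E14.5 library, which held for 16.3% of all genes. Both stages hold only libraries with macrophage transcripts.

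The 4 largest rises were those of Mrpl4, Mrps24, Mrpl12 and Mrpl42. Mrpl4 reaches into the tunnel through which the new protein leaves the large subunit. Its level was 39.0, 43.4 and 46.6 CPM at E14.5 and 65.0, 67.9, 61.3 and 71.7 CPM at E16.5. The groups did not overlap, and the difference was 0.63 ± 0.09 (log2 fold change ± SE, edgeR adjusted p = 4.9e-05). Mrpl12 was at 116, 126.5 and 142 CPM at E14.5 and at 190.3, 169.9, 173 and 227 CPM at E16.5, again without overlap (0.57 ± 0.11, adjusted p = 0.00107). Mrps24, homologous to a bacterial protein at the mRNA entry of the small subunit, was at 28.4, 33.7 and 45.1 CPM and then at 56.0, 47.4, 45.7 and 63.6 CPM. Its lowest E16.5 library was only just above its highest E14.5 library (0.58 ± 0.14, adjusted p = 0.0072), and without E14.5 replicate 1 the adjusted p was 0.0586.

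Mrpl42, of the large subunit, had the largest range of any member over the stages. Its level was 137, 122 and 112 CPM at E9.5, 116, 111, 117 and 118 CPM at E10.5, and 123, 131, 157 and 126 CPM at E12.5. It was 129.6, 168, 201 and then 267, 225, 225 and 266 CPM in the libraries of E14.5 and E16.5. All E16.5 libraries lay above all others. The rise from E14.5 was 0.56 ± 0.12 (adjusted p = 0.00266), and that from E9.5 was 0.99 ± 0.12 (adjusted p = 6.74e-07), from 123.5 ± 12.6 CPM (SD, n = 3) to 246 ± 23.9 CPM (n = 4).

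The count of 35 leans on single libraries. It was 11 without E14.5 replicate 1, 17 without E14.5 replicate 2, 21 without E16.5 replicate 1 and 18 without E16.5 replicate 4. These calls were all among the 35. The share of all genes called in either direction also fell, to between 10.7% and 15.4% in these fits, from 18.9% over all libraries. The median member was at 0.20 to 0.25 in these fits, against 0.26 over all libraries. The fold change was positive in 73 to 76 members. Scaling by library totals alone moved the median of all genes to -0.15 and left 13 members called, with the fold change positive in 65 of 78. Of all genes, 26.5% were then called in either direction. The median member was 0.28 above the median of all genes with either scaling. A change of scaling shifts all genes by nearly the same amount, so this gap could hardly differ and is no check of the rise. E16.5 replicate 4 had the highest mitoribosomal sum (5124 CPM) and the highest sum of mitochondrial mRNAs (69140 CPM). Cardiomyocyte genes moved with this comparison: 7 of 13 rose, and their sum was 33850 ± 1671 CPM (SD, n = 3) at E14.5 and 47040 ± 2322 CPM (n = 4) at E16.5. In whole hearts, more cells of a type cannot be told apart from more RNA per cell, and the part of cardiomyocyte content in the rise was not tested.

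**Figure D3:**
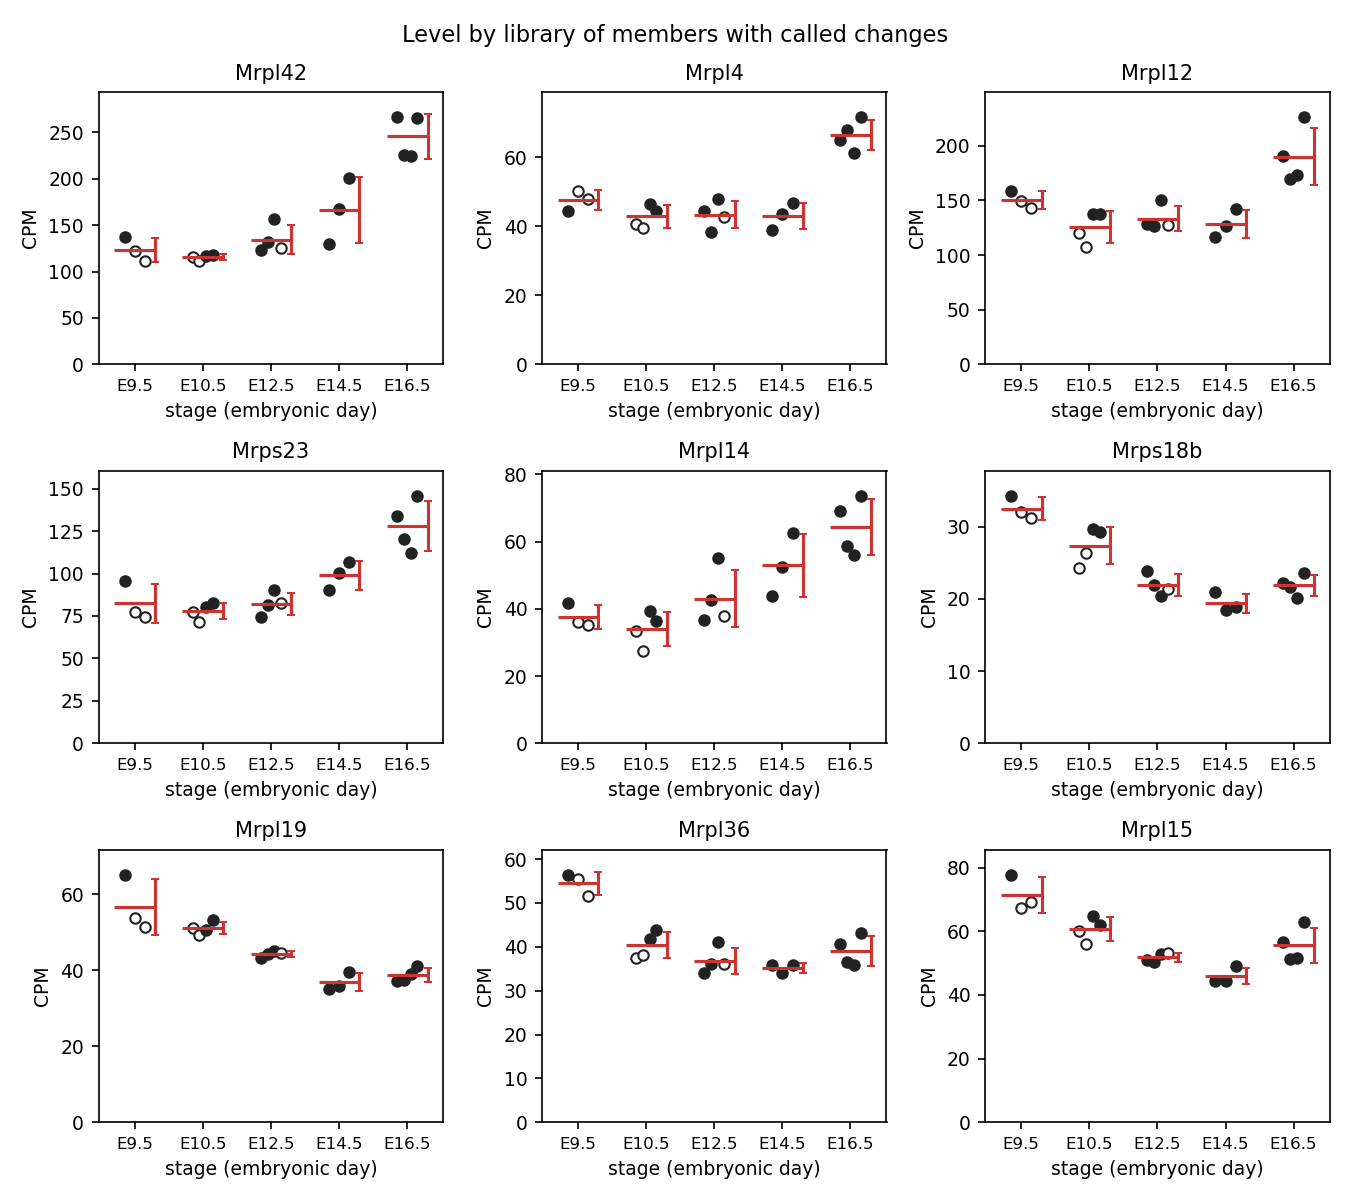
Level in CPM of 9 mitoribosomal protein genes by library and stage. Each point is a library, open points are the 5 libraries low in macrophage transcripts, and red lines are stage means with SD. Mrpl42, Mrpl4, Mrpl12, Mrps23 and Mrpl14 are highest at E16.5, and Mrps18b, Mrpl19, Mrpl36 and Mrpl15 are highest at E9.5.

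From E9.5 to E16.5, the widest span sampled, the members went both ways. The test called 34 higher and 8 lower, while 32.1% of all genes tested were higher and 32.8% lower. Among large-subunit genes 21 rose and 5 fell, and among small-subunit genes 13 rose and 3 fell. The median fold change was 0.16 (log2) against -0.0052 for all genes, and 55 of 78 members had a positive one. In 34 members all E16.5 libraries lay above all E9.5 libraries and in 6 all lay below, against 31.4% and 30.5% of all genes. As shares of the 78, 43.6% were called higher and 10.3% lower. Markers of other cell types moved over the same span. Of 8 fibroblast and epicardial genes 5 rose and none fell, and their sum ran from 267 to 393 CPM at E9.5 and from 3870 to 4715 CPM at E16.5. Of 6 endothelial genes 4 rose and 2 fell (658 to 775 CPM, then 894 to 915 CPM), and of 10 erythroid genes 5 rose and 4 fell (5202 to 7978 CPM, then 10730 to 23450 CPM). Of 13 cardiomyocyte genes 7 rose and 3 fell. Of 8 liver and endoderm genes 3 were tested and 2 fell, with a sum of 0.905 to 63.6 CPM at E9.5 and 1.428 to 6.999 CPM at E16.5. Among the 13 libraries with macrophage transcripts, where 6 liver and endoderm genes were tested, none of these fell and 1 rose, and 4 endothelial genes rose and none fell. The share of these changes in the members' values was not tested.

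After Mrpl42, the largest rises were those of Mrpl14, Mrps24, Mrpl34, Mrps23, Mrps16, Mrpl33 and Mrpl30. Mrpl14, the large-subunit protein that the assembly factor Malsu1 binds, was at 41.7, 36.0 and 35.1 CPM at E9.5 and at 69.0, 58.7, 55.9 and 73.6 CPM at E16.5. The groups were far apart (0.77 ± 0.16, adjusted p = 0.0003). Mrps23, a small-subunit protein without a bacterial counterpart, was at 95.8, 77.1 and 74.6 CPM and then at 134, 120.2, 112 and 146 CPM (0.63 ± 0.10, adjusted p = 2.12e-05). Mrpl33, whose promoter is printed above, was at 43.1, 33.5 and 29.0 CPM and then at 57.8, 51.3, 51.6 and 53.9 CPM (0.61 ± 0.14, adjusted p = 0.00105). The E9.5 library with macrophage transcripts was the highest of its stage for each of these 3 genes. Mrps24 rose by 0.70 ± 0.14, Mrpl34 by 0.64 ± 0.13, Mrps16 by 0.62 ± 0.16 and Mrpl30 by 0.52 ± 0.10. Mrps27, a pentatricopeptide repeat protein of the small subunit with a printed promoter, rose by 0.39 ± 0.08 (adjusted p = 0.000174), with an adjusted p of 0.0514 among the 13 libraries with macrophage transcripts.

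Of the 8 falls, 6 had no overlap between the stages. Mrps18b, a paralogue of a bacterial small-subunit protein, was at 34.3, 32.0 and 31.2 CPM at E9.5, 24.2, 26.4, 29.7 and 29.2 CPM at E10.5, and 23.9, 21.9, 20.4 and 21.4 CPM at E12.5. It was at 20.9, 18.5 and 18.9 CPM at E14.5 and at 22.2, 21.6, 20.1 and 23.5 CPM at E16.5. All E9.5 libraries lay above all later ones, and the fall from E9.5 to E16.5 was -0.57 ± 0.08 (adjusted p = 6.82e-06). The antisense gene Gm16279 overlaps 30.5% of its exons, and without a known strand setting their reads cannot be told apart. Mrpl19, of the large subunit, was at 65.2, 53.8 and 51.3 CPM at E9.5 and at 37.3, 37.6, 38.9 and 41.2 CPM at E16.5 (-0.55 ± 0.07, adjusted p = 2.4e-06). Its exons overlap those of Gcfc2 on the other strand by 36.0%.

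Mrpl36, a small zinc-binding protein of the large subunit, was at 56.4, 55.4 and 51.5 CPM at E9.5. It was at 37.5, 38.2, 41.8 and 43.9 CPM at E10.5 and at 40.6, 36.6, 35.8 and 43.1 CPM at E16.5. The E9.5 libraries lay above all of these, and E10.5 and E16.5 overlapped. From E9.5 to E16.5 it fell by 0.48 ± 0.08 (adjusted p = 3.26e-05). Mrpl15 (-0.36 ± 0.08), Mrps2 (-0.33 ± 0.07) and Mrpl17 (-0.27 ± 0.08) fell as well. Mrps22, whose promoter is printed, was at 44.2, 37.3 and 37.6 CPM at E9.5 and at 34.0, 34.6, 33.7 and 38.1 CPM at E16.5. The stages overlapped, and its call (-0.18 ± 0.07, adjusted p = 0.0367) was lost under 10 of 18 alternative settings.

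The comparison of E16.5 with E9.5 rests partly on the libraries low in macrophage transcripts, which make up 2 of 3 libraries at E9.5 and none at E16.5. With a term for these libraries beside the stage, 26 members were called higher and 14 lower. Of all genes, 62.4% were called in either direction in that fit, and 64.9% without the term. The 8 members that fell over all libraries were among the 14 called lower with the term. Among the 13 other libraries alone, E9.5 has 1 library, which is assumed to vary like those of the other stages. The median member was at 0.11 there, against 0.03 for all genes tested. The fold change was positive in 42 members and negative in 36. Among these 13 libraries it was 0.85 for Mrpl42, 0.63 for Mrpl14, 0.92 for Mrps24, 0.58 for Mrpl34 and 0.42 for Mrps16. For Mrps30 it was -0.57 there and -0.26 over all libraries (adjusted p = 0.191).

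Between neighbouring earlier stages few members moved, and each of these comparisons shares a stage with the next. From E9.5 to E10.5, 0 of 78 rose and 4 fell by edgeR, while 10.6% of all genes rose and 7.62% fell, and the median member was at -0.13 against -0.0037 for all genes. Without E9.5 replicate 1 that median was -0.05. Over the same step 5 of 13 cardiomyocyte genes fell and 2 rose (sum 34770 ± 1835 CPM at E9.5 and 29450 ± 1379 CPM at E10.5), and 7 of 8 fibroblast and epicardial genes rose (329 ± 63.0 CPM and 1020 ± 101.5 CPM), and their part in the members' values was not tested. No member was higher at an unadjusted p under 0.05 (edgeR), nor by DESeq2 or limma-voom, while 15 were lower at that unadjusted p. The fold change was negative in 68 of 78 members, and in 52 without E9.5 replicate 1. It was also negative in 82 of 86 cytosolic ribosomal genes over all libraries. The 4 members called lower were Mrpl36 (-0.43 ± 0.08, adjusted p = 0.000751), Mrps26 (-0.36 ± 0.09, adjusted p = 0.00971), Mrps18b (-0.25 ± 0.08, adjusted p = 0.0463) and Mrpl15 (-0.23 ± 0.08, adjusted p = 0.0437). The calls of Mrps18b and Mrpl15 were each lost under 9 of 19 alternative settings, and those of Mrpl36 and Mrps26 under 1, the 13 libraries with macrophage transcripts alone. Mrps26, a small-subunit protein without a bacterial counterpart, was at 53.3, 50.4 and 49.7 CPM at E9.5 and at 36.5, 35.3, 44.3 and 43.6 CPM at E10.5. Its E10.5 libraries low in macrophage transcripts were the lower pair. Within the low libraries alone 26 members were called lower and 5 higher, beside 34.9% of all genes called in either direction. With a term for the low libraries 14 members were called lower and 0 higher, beside 25.1% of all genes called. Over all libraries without the term that share was 18.2%. Among the other 13 libraries, with 1 library at E9.5, the median member was at -0.18.

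From E10.5 to E12.5, 1 member rose and 3 fell, while 20% of all genes rose and 18.1% fell. Mrpl48, a large-subunit protein without a bacterial counterpart, was at 42.8, 41.5, 44.7 and 46.9 CPM at E10.5 and at 51.5, 50.1, 53.0 and 48.5 CPM at E12.5 (0.21 ± 0.07, adjusted p = 0.0314), a call that was lost under 7 of 20 alternative settings. Mrps18b (-0.32 ± 0.08, adjusted p = 0.00306), Mrpl15 (-0.23 ± 0.07, adjusted p = 0.0172) and Mrpl19 (-0.21 ± 0.07, adjusted p = 0.0239, lost under 5 of 20 settings) fell. From E12.5 to E14.5, 1 rose and 1 fell, while 6.29% and 8.55% of all genes did. Mrps34, which keeps the small subunit stable, was at 46.4, 45.0, 53.2 and 54.5 CPM at E12.5 and at 57.6, 59.7 and 81.1 CPM at E14.5 (0.41 ± 0.11, adjusted p = 0.019). This call was lost under 3 of 18 settings: without E12.5 replicate 1, without E12.5 replicate 2 and without E14.5 replicate 3. Mapk8ip3 on the other strand overlaps 63.4% of the exons of Mrps34, so its value is uncertain. Mrpl19 fell again, from 44.3 ± 0.714 CPM (SD, n = 4) to 36.9 ± 2.44 CPM (n = 3), with a difference of -0.26 ± 0.08 (adjusted p = 0.0223, lost under 6 of 18 settings).

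Scaling changed the split of these small counts. With library totals only, 0 members rose and 5 fell from E10.5 to E12.5, and 4 rose and 0 fell from E12.5 to E14.5. Of all genes, 38.4% and 14.4% were called in either direction in these fits.

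The other ends of the same system were described by lists of genes named by role. The 13 mitochondrially encoded mRNAs, which the mitoribosome reads, had a median log2 fold change of 1.31 from E9.5 to E16.5, and 11 of 13 rose. Their sum was 22090 ± 1317 CPM at E9.5 (SD, n = 3), 27220 ± 3386 CPM at E10.5 and 34980 ± 1962 CPM at E12.5, and it reached 41120 ± 5320 CPM at E14.5 and 57650 ± 9134 CPM at E16.5. Among them mt-Co1 went from 7827 to 23220 CPM, and mt-Co2 from 2.81 to 10.4 CPM. Reads of a mitochondrial mRNA with a near-identical nuclear copy may be lost in counting, so levels as low as that of mt-Co2 are uncertain. The mRNAs mt-Co3, mt-Atp6, mt-Atp8, mt-Nd3 and mt-Nd4l were also counted at only a few CPM, far below mt-Co1. The median and the count of 11 thus rest partly on genes of uncertain level, and the sum holds little of them. The mitochondrial rRNAs were not analysed here.

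Nuclear genes for respiratory chain and ATP synthase subunits (85 tested) rose in 83 cases from E9.5 to E16.5, with a median of 1.17, against 0.16 for the 78 mitoribosomal genes. Cox8b, a heart and muscle isoform of cytochrome oxidase, went furthest, from 0.470 to 101 CPM. The lists also parted in time. From E10.5 to E12.5, 54 of the 85 rose with a median of 0.42, while 1 of 78 mitoribosomal genes did with a median of 0.03. From E14.5 to E16.5 the count was 66 of 85 with a median of 0.60, beside 35 of 78 with a median of 0.26. The cytosolic ribosomal proteins (86 tested) had 2 rises (2.33%) and 28 falls (32.6%) from E9.5 to E16.5, with a median of -0.21. Over that span 32.1% of all genes tested rose and 32.8% fell. From E14.5 to E16.5 these proteins had 2 rises, with a median of 0.12. Rpl14 fell most (-0.64), and Rpl3l, a muscle paralogue, rose most, from 0.657 to 1.90 CPM. Among the 13 libraries with macrophage transcripts alone, 77 of 86 oxidative phosphorylation genes rose from E9.5 to E16.5 (median 0.95) and 20 from E10.5 to E12.5 (median 0.36), 9 of 13 mitochondrial mRNAs rose from E9.5 to E16.5 (median 0.97), and 1 of 87 cytosolic ribosomal proteins rose and 34 fell (median -0.31). The differences between these lists were not tested.

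**Figure D4:**
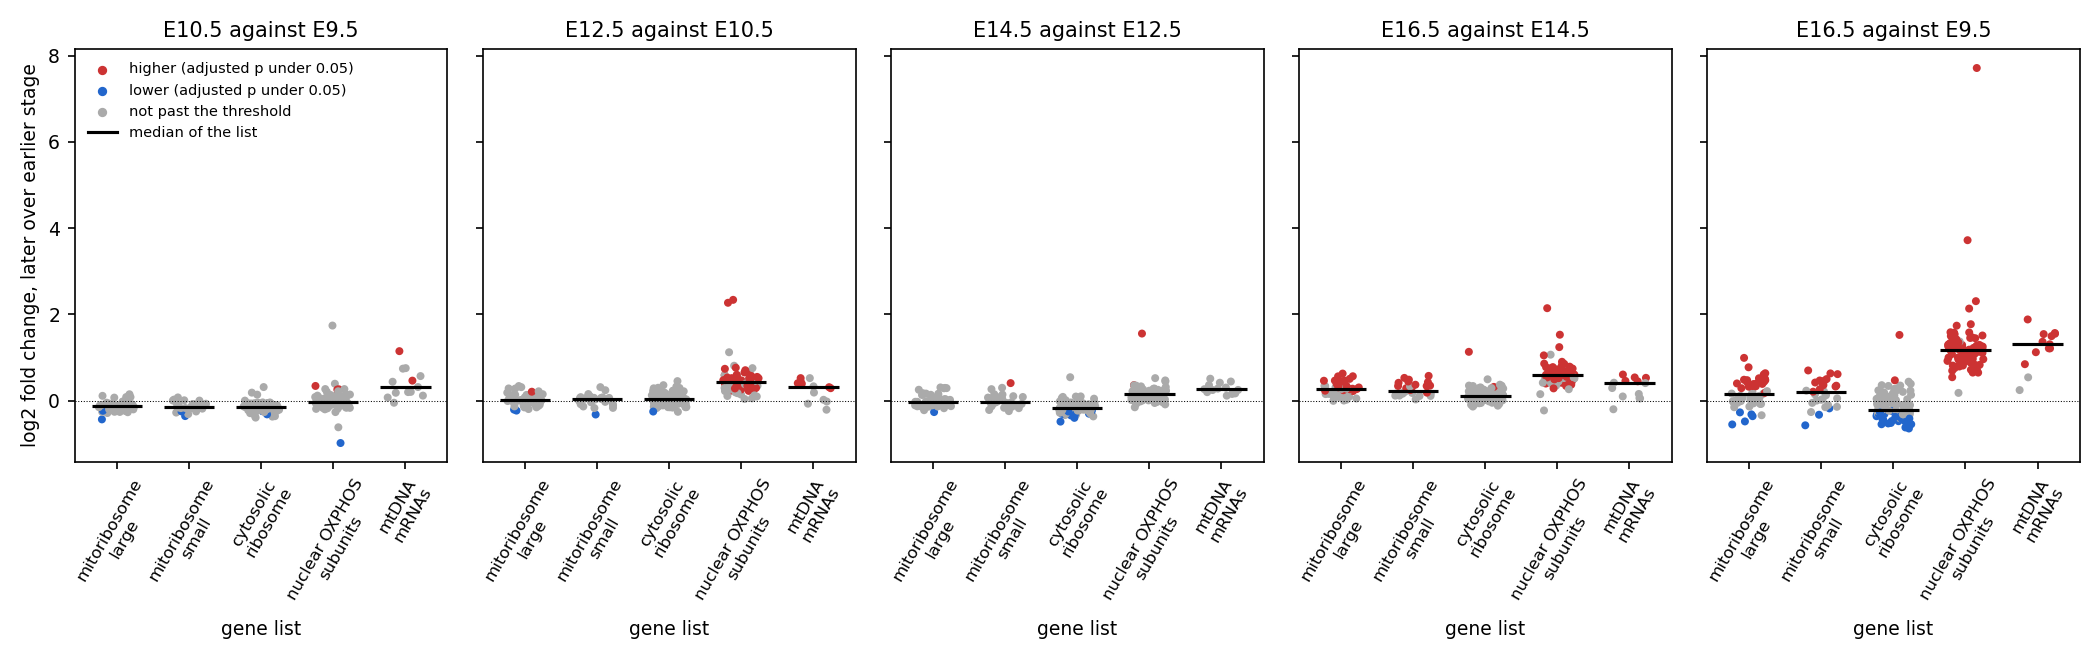
Log2 fold change (later over earlier stage) of each gene of 5 lists in each of the 5 comparisons. Red and blue points are genes higher or lower at an adjusted p under 0.05 (edgeR), grey points are the rest, and black lines are medians. Large- and small-subunit genes of the mitoribosome lie near 0 in the first 3 comparisons, mostly below it in E10.5 against E9.5. They lie above it in E16.5 against E14.5, where 35 of 78 are red. Nuclear oxidative phosphorylation genes already lie above 0 in E12.5 against E10.5.

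Subunits of the mitoribosome that carry other names gave a mixed picture from E9.5 to E16.5. Of 5 tested, Aurkaip1 of the small subunit rose (0.38 ± 0.15, adjusted p = 0.0286) and Ptcd3, a pentatricopeptide repeat protein of the small subunit, fell from 114 ± 6.44 to 83.2 ± 3.95 CPM (-0.46 ± 0.08, adjusted p = 0.000101). Dap3, Gadd45gip1 and Chchd1 had adjusted p of 0.455, 0.486 and 0.995. Among the libraries with macrophage transcripts alone, Aurkaip1 had an adjusted p of 0.36. Of 31 genes for assembly of the mitoribosome and for mitochondrial rRNA, 7 rose (22.6%) and 12 fell (38.7%), with a median of -0.06. Of all genes tested, 32.1% rose and 32.8% fell over this span. Mpv17l2, an inner membrane protein that assists assembly, rose most, from 12.1 ± 0.698 to 27.5 ± 3.97 CPM (1.19 ± 0.14, adjusted p = 3.64e-07). Rpusd3, a pseudouridine synthase, fell most (-0.61 ± 0.20, adjusted p = 0.012).

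Of 15 factors of mitochondrial translation, 5 rose and 3 fell from E9.5 to E16.5, while 32.1% of all genes tested rose and 32.8% fell. From E14.5 to E16.5, 7 of the factors rose, while 10.1% of all genes did. Mrrf, which recycles the ribosome after termination, rose most over the whole span, from 27.0 ± 1.80 to 46.9 ± 3.06 CPM (0.80 ± 0.08, adjusted p = 5.22e-08). Mtrf1l, a release factor, fell most (-0.27 ± 0.08, adjusted p = 0.0081). Among the libraries with macrophage transcripts alone, 2 of the 15 rose and none fell over the whole span, and Mtrf1l had an adjusted p of 0.0633. Of 17 mitochondrial aminoacyl-tRNA synthetases, 7 rose (41.2%) and 4 fell (23.5%) from E9.5 to E16.5, with a median of -0.01. Ears2, which charges the tRNA for glutamate, rose from 21.4 ± 1.11 to 70.0 ± 5.60 CPM (1.71 ± 0.10, adjusted p = 1.96e-11), more than any mitoribosomal gene.

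Among 14 transcriptional regulators of mitochondrial genes, 4 rose (28.6%) and 6 fell (42.9%) from E9.5 to E16.5, while 32.1% of all genes tested rose and 32.8% fell. Esrra, a nuclear receptor, rose most, from 67.0 ± 1.51 to 161 ± 27.2 CPM (1.27 ± 0.12, adjusted p = 1.65e-08). Mycn, which drives growth programmes of the embryonic heart, fell most, from 93.2 ± 5.22 to 32.8 ± 1.25 CPM (-1.51 ± 0.09, adjusted p = 1.21e-11). Of the factors whose motifs were searched, Nrf1 fell (-0.42 ± 0.06, adjusted p = 8.12e-06), while Gabpa (-0.16, adjusted p = 0.0669), Yy1 (-0.03, adjusted p = 0.77) and Sp1 (-0.13, adjusted p = 0.0949) did not pass the test. Of the 12 members with CCGGAAGT in the promoter 7 rose and 1 fell from E9.5 to E16.5, with a median of 0.28. Of the 57 matched members without it 21 rose and 5 fell, with a median of 0.13. This split is a description of 69 genes and shows no effect of the motif.

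Members with roles in disease or outside the ribosome differed among themselves. Mrpl3 and Mrps14 rose from E9.5 to E16.5 (0.18 ± 0.06, adjusted p = 0.018, and 0.33 ± 0.12, adjusted p = 0.0187), and Mrpl44 was at 31.8 ± 3.94 CPM (SD, n = 3) and 32.3 ± 3.77 CPM (n = 4), with an adjusted p of 0.84. The calls of Mrpl3 and Mrps14 were lost among the libraries with macrophage transcripts (adjusted p = 0.375 and 0.452). Mrpl58, a peptidyl-tRNA hydrolase that is also built into the large subunit, rose from 50.2 ± 2.54 to 63.0 ± 6.58 CPM (0.33 ± 0.09, adjusted p = 0.00349), and was at an adjusted p of 0.12 among those libraries. Mrps36, which is a component of the 2-oxoglutarate dehydrogenase complex despite its name, rose (0.47 ± 0.14, adjusted p = 0.00753, and 0.181 among those libraries).

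The 3 paralogues Mrps18a, Mrps18b and Mrps18c, of which Mrps18a sits in the large subunit in structures, parted. Mrps18a was at 45.8 ± 1.16 CPM (SD, n = 3) at E9.5 and 53.2 ± 6.22 CPM (n = 4) at E16.5 (0.22 ± 0.11, adjusted p = 0.085). Mrps18c was at 31.1 ± 7.30 and 32.3 ± 4.53 CPM (0.05 ± 0.15, adjusted p = 0.778), and Mrps18b fell as given above. Per kilobase of exon and averaged over the 18 libraries, Mrps18c stood at 28.8 CPM, Mrps18a at 12.2 CPM and Mrps18b at 11.7 CPM. Their annotated exon lengths are 1076, 3690 and 2089 bases, and before division by length Mrps18a was above Mrps18c at E9.5 and E16.5. Gm43511 on the same strand overlaps 23.2% of the exons of Mrps18c.

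Overlap with other genes touches part of the module. Exons of 33 members overlap those of another annotated gene, 9 of them over at least 20% of their length: Mrpl19, Mrpl24, Mrpl43, Mrpl53, Mrps18b, Mrps18c, Mrps25, Mrps27 and Mrps34. Of the 69 members below that share, 32 rose and none fell from E14.5 to E16.5, with a median of 0.27. The 45 members overlapped by no gene gave 24 rises and a median of 0.31. Among the overlapped genes, Mrps25 (69.8% by Nr2c2) and Mrpl43 (33.4% by Twnk) rose from E14.5 to E16.5 (0.29 ± 0.10, adjusted p = 0.0434, and 0.32 ± 0.11, adjusted p = 0.0409). These calls were lost under 8 and 6 of 18 alternative settings, library totals and the replicate block among them. Mrpl24 (26.3% by Rrnad1) was at 76.4 ± 3.29 and 76.3 ± 5.22 CPM. The 5 annotated pseudogenes of Mrpl23, Mrpl48 and Mrps36 were at 0 to 1.59 CPM in every library.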

How the data were processed

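For each of the 18 libraries the authors deposited raw gene counts. Per the submitters' processing notes, the tools were STAR 2.5.2b, Trimmomatic 0.36, Subread 1.5.2 and featureCounts, with the build GRCm38. Neither strand setting nor annotation release is known, so reads of overlapping genes cannot be told apart. Symbols were matched to 48970 of 49315 identifiers, and exon overlaps were taken from the reference annotation of GRCm38. Genes were filtered by filterByExpr on stage, which kept 18885 genes and all 78 members. One edgeR 4.0.16 fit of all libraries (TMM scaling, robust quasi-likelihood test, adjusted p under 0.05 by Benjamini-Hochberg over all genes tested) gave every comparison. Levels are TMM-scaled CPM. DESeq2 1.42.0 and limma 3.58.1 (voom) were alternatives, beside other scalings, filters and library sets. Differences of counts between replicates exceeded sampling noise in every pair (chi-square per degree of freedom 6.06 or more), so none was taken for a repeat.

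The members and lists were chosen with earlier results of these data known. Named members are the 8 largest rises and falls without overlap between libraries for E16.5 against E9.5, the 4 largest of each in the other comparisons, the 4 highest and 4 lowest per kilobase, the 4 profiles least and the 3 most like the median profile, the Mrps18 paralogues, members with roles in disease or outside the ribosome, and members overlapped over at least 20% of exon length. Of other lists, the largest rise and the largest fall are named, except for a gene that is not reported here. Nrf1, Gabpa, Yy1, Sp1 and mt-Co1 were named in addition, after their values were seen.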

Additional observations from a re-analysis of the deposited data

Results flagged for a closer look

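In 7 of the 123 stage groups examined, the highest or lowest library stood apart from the others by Dixon's test. Chance alone gives such a gap in about 5% of groups.

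At E12.5 replicate 3 was the highest library in 4 of these groups. The summed level of the 78 mitoribosomal genes was 4091 CPM there, against 3591 to 3623 CPM in the other libraries of the stage. Mrpl12, the stalk protein, was at 150.4 CPM, against 126.9 to 128.7 CPM. Mrpl32 was at 30.95 CPM, against 25.23 to 25.91 CPM, and Mrpl58, the peptidyl-tRNA hydrolase, at 56.32 CPM, against 48.66 to 49.8 CPM. The cytosolic ribosomal proteins were also highest in this library, at 50850 CPM, with the lowest library of the stage at 36940 CPM.

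At E10.5 the lowest library stood apart for 3 genes. Mrps2, of the small subunit, was at 43.88 CPM in replicate 2, against 46.51 to 46.84 CPM. Mrps36, the 2-oxoglutarate dehydrogenase component, was at 27.53 CPM in the same library, against 33.38 to 33.82 CPM. Mrpl53, a gene overlapped by Gm42688, was at 1.127 CPM in replicate 4, against 1.657 to 1.749 CPM.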

How the results depend on the processing

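Of 56 calls of named genes, 20 held under every alternative and 0 turned direction. For E16.5 against E14.5, 35 members rose, and leaving out 1 library gave 11 to 41. Over those fits 10.7% to 19.9% of all genes were called in either direction. For E16.5 against E9.5 the ranges were 27 to 38 risen and 6 to 10 fallen. For E10.5 against E9.5 they were 0 to 2 and 2 to 4, for E12.5 against E10.5 0 to 3 and 2 to 5, and for E14.5 against E12.5 0 to 5 and 0 to 2. In the order given, 58.2% to 65.5%, 11.7% to 19.9%, 32.2% to 38.1% and 9.18% to 13.4% of all genes were called in either direction. The single libraries behind the largest shifts were E14.5 replicate 1 (11 rises to E16.5 without it), E12.5 replicate 3 (5 rises to E14.5) and E9.5 replicate 1 (2 rises to E10.5).

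With library totals only, 13 rose for E16.5 against E14.5. The earlier comparisons then gave 2 falls from E9.5 to E10.5, 0 rises and 5 falls from E10.5 to E12.5, and 4 rises and 0 falls from E12.5 to E14.5. In the order given, 26.5%, 17.8%, 38.4% and 14.4% of all genes were called in either direction. Without a filter on low counts, falls were 2 from E9.5 to E10.5 and 0 from E12.5 to E14.5, beside 8.36% and 6.81% of all genes. With at least 10 CPM in 3 libraries, 4 rose from E10.5 to E12.5, and 2 rose and 0 fell from E12.5 to E14.5, beside 51.5% and 20.8%. DESeq2 gave 7 falls from E9.5 to E10.5, 3 rises from E10.5 to E12.5 and 2 falls from E12.5 to E14.5, beside 20.9%, 40.1% and 17.9%. Fits of only the 2 stages compared gave 5 rises from E10.5 to E12.5 and 2 rises from E12.5 to E14.5, beside 42.2% and 14.4% of all genes called in either direction.

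With a term for the libraries low in macrophage transcripts, falls were 14 from E9.5 to E10.5, 7 from E10.5 to E12.5, 2 from E12.5 to E14.5 and 14 from E9.5 to E16.5. Of all genes, 25.1%, 40.3%, 18.8% and 62.4% were called in either direction in these comparisons. Among the other 13 libraries alone, 0 fell from E9.5 to E10.5, 0 rose from E10.5 to E12.5, 2 fell from E12.5 to E14.5, and 9 rose and 15 fell from E9.5 to E16.5. Among the 5 low libraries, an alternative chosen after seeing the data, 5 rose and 26 fell from E9.5 to E10.5. Of all genes, 34.9% were called in either direction there. From E10.5 to E12.5, with 1 low library at E12.5, the median member was at 0.06. The cause of these shifts was not tested.

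Replicate numbers did not pair the samples: deviations of same-numbered libraries correlated from -0.69 to 0.576, with a median of -0.06. With the replicate number as a block, 24 rose from E14.5 to E16.5, 2 rose from E10.5 to E12.5 and 0 fell from E12.5 to E14.5. From E9.5 to E10.5 it gave 0 rises and 6 falls, and from E9.5 to E16.5 34 rises and 8 falls. In the order given, 16.4%, 37.4%, 12.8%, 17.4% and 63.2% of all genes were called in either direction with the block.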
